A study of Mus musculus with 10 samples.

Results

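Major urinary proteins, an odorant-binding protein and a secretoglobin were measured in mammary tumours of MMTV-PyMT mice on 10 Affymetrix mg_u74av2 arrays. Of the 6 genes chosen, Mup1, Mup3, Mup4, Mup5, Obp1a and Scgb1b27, the platform annotation gives a probe set to 4. These 4, of 8251 genes with a probe set of their own, hold 5 of the 12422 probe sets left after removal of controls: 2 for Mup3 and 1 each for Mup5, Obp1a and Scgb1b27. Mup1 and Mup4 have no entry. The genes were selected on earlier results of these same arrays, so their levels are given below as descriptions with no test.

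Secreted lipocalins such as the major urinary proteins and Obp1a fold into a barrel that carries small volatile molecules. In male mice the liver makes most of the urinary proteins, under growth hormone and androgen control, and several glands that open on to the face, skin or breast make smaller amounts. Secretoglobins are small secreted proteins, and Scgb1b27 is the alpha subunit of the androgen-binding protein of mouse saliva and tears.

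Each array held RNA from mammary tumour of adult female mice aged 90 days. All bear the MMTV-PyMT transgene: a mammary tumour virus promoter drives polyomavirus middle T antigen in mammary epithelium. The titles name a strain for 9 arrays: 2 each for ILn, MOLF, LP and NZB, lettered A and B, and 1 for FVBn. The strain field reads FVB/Nj for all 10, so the groups rest on titles alone, and 1 array whose title names no strain entered no comparison. The titles call the strain samples mixes without saying what was mixed, so any p-value measures only the spread between arrays, which may be technical. Values are quantile normalized log2 intensities, and values in the lowest 30% of an array were raised to a floor of 4.75, below which levels have no order.

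Mammary epithelial markers were present on every strain array: of 16 genes, 14 passed the filter on dim probe sets, and none of the 14 was at the floor. Their summed intensity lay between 28640 and 35200 on the strain arrays. Of the 14, 2 passed the F test described below, Krt19, a luminal keratin, and Ltf, the milk protein lactoferrin. That test called 0.748% of all tested probe sets. Both genes were lower in MOLF (-1.19 and -0.88 log2 units, adjusted p = 0.0274 and 0.026 in limma), as were 0.283% of all tested probe sets. In MOLF 0 of 14 passed with the title date or the array letter as a block, with median centring or with no intensity trend. Counts for this list under the alternatives were added after the data were seen. With no filter on dim probe sets 0 of 16 passed. Over all tested probe sets, MOLF A correlated with MOLF B at only 0.868 and NZB B with NZB A at 0.852. In contrast, MOLF A and NZB B correlated at 0.927, and results were also taken without this pair. RNA integrity, read as the 3' minus 5' log2 signal of actin probe sets, gave 0.22 and 0.28 on ILn and 0.22 on FVBn, while MOLF, LP and NZB arrays gave 0.60 to 1.12. Titles also carry dates, of which ILn A and NZB B share one, LP A and MOLF A another and the remaining 5 strain arrays the latest.

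The urinary protein transcripts were high in MOLF and ILn tumours, lower in LP and FVBn and at the floor in NZB. Mup5 encodes a major urinary protein. Its probe set read 9.51 and 9.66 on the MOLF arrays, 9.15 and 9.04 on ILn, 7.52 and 7.00 on LP and 7.48 on FVBn, and both NZB arrays were at the floor. The MOLF arrays lay above both ILn arrays, these lay above LP and FVBn, and FVBn fell inside the range of LP. In bulk tumour RNA, fewer cells of a type and less RNA per cell cannot be told apart.

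Mup5 averaged 9.59 ± 0.11 in MOLF and 9.10 ± 0.07 in ILn (SD, n = 2 each), a log2 difference of 0.49 beside a pooled SD within strains of 0.19. Against LP (7.26 ± 0.37) the difference was 2.33 for MOLF and 1.84 for ILn, that is 5.02-fold and 3.57-fold. Against NZB the fold was at least 28.6 for MOLF and at least 20.3 for ILn, because both NZB arrays were at the floor. MOLF minus the mean of ILn, LP and NZB was 2.55 (9.59 against 7.04). The direction of the MOLF difference was the same on arrays of the latest title date alone (2.73).

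Mup3, another gene of the urinary protein cluster, has 2 probe sets. The first read 7.80 and 7.28 on ILn, 7.52 and 7.86 on MOLF, 6.91 and 6.03 on LP and 6.59 on FVBn, with both NZB arrays at the floor. Here the ILn and MOLF arrays overlapped, at means of 7.54 ± 0.37 and 7.69 ± 0.24, and the LP mean of 6.47 ± 0.62 lay below both. The second read 6.91 and 7.46 on ILn and 6.24 and 7.38 on MOLF, and was at the floor on all LP, NZB and FVBn arrays. The probe sets thus disagreed on LP and FVBn, where only the first was above the floor, and in MOLF the second had a wide spread (6.81 ± 0.80). Its MOLF difference was 1.25 with both arrays, 1.81 without MOLF A and 0.68 without MOLF B.

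All 3 urinary protein probe sets carry the suffix _f_at, which Affymetrix gives to sets whose probes match several members of a gene family. The RefSeq table lists 22 protein-coding Mup genes on 1 chromosome. The platform annotation names 1 gene for each set and none for several Mup genes, but the suffix means that signal from other Mup transcripts cannot be told apart from that of the named gene. Over the 9 strain arrays the log2 values of Mup5 and the first Mup3 set correlated at r = 0.985, and the second Mup3 set correlated with them at 0.802 and 0.76. These coefficients describe 9 arrays that fall into strain groups, and they carry no test.

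**Figure D1:**
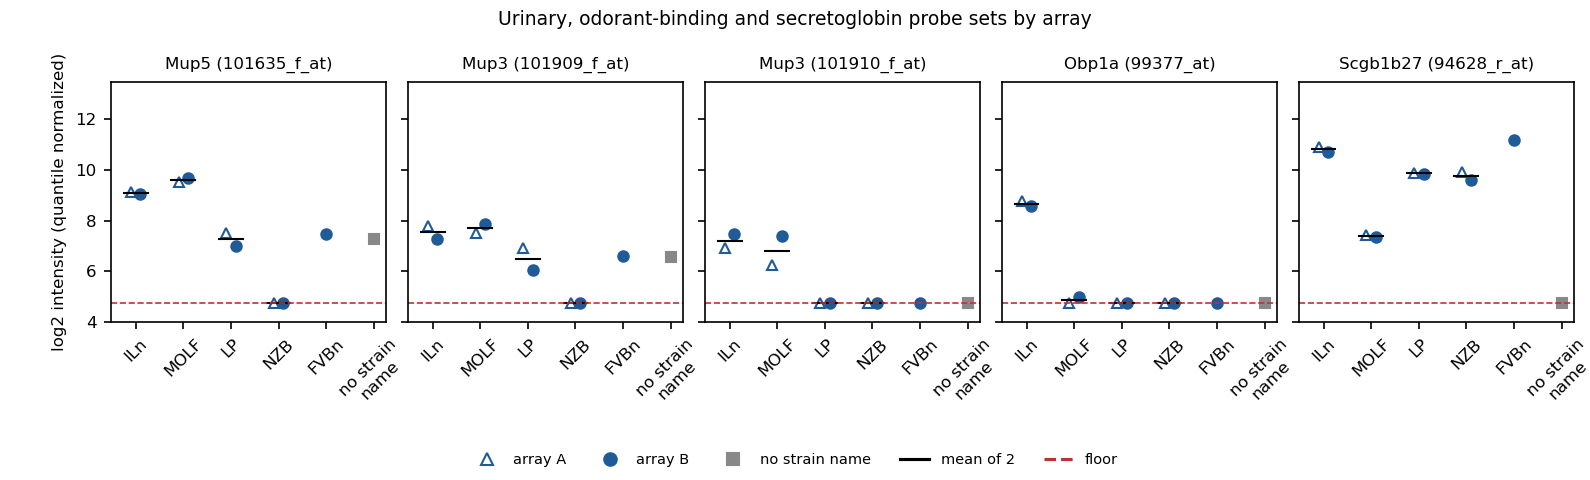
Quantile normalized log2 intensity of the 5 probe sets on each array, in columns by strain name; triangles are A arrays, circles B arrays, the square the array with no strain name, short bars the mean of 2 arrays and the dashed line the floor of 4.75. The urinary protein sets are high in ILn and MOLF and at the floor in NZB, Obp1a stands clear of the floor on the 2 ILn arrays only, and Scgb1b27 is lowest among strain arrays in MOLF.

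Promoter sequence of the genes was looked up as a description, with no test. RefSeq windows of GRCm38.p6, of 300 bases around the annotated start, exist in the table used for 14 Mup genes, with Mup3 and Mup4 among them and Mup1 and Mup5 not. Local alignment of the Mup3 window with the other 13 gave identities of 76.5% to 93.3%, and 88.3% over 282 columns with Mup4. The Mup3 window, on the minus strand at chr4:62087268-62087567, is printed with a TATATAA run in capitals at positions -11 to -5 from the start.
Mup3: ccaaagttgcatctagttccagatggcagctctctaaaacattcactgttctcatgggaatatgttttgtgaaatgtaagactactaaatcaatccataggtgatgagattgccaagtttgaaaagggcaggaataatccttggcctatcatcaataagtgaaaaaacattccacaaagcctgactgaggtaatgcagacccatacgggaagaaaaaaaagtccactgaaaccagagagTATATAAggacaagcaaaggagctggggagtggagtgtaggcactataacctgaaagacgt

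The letters TATAAA, a common form of the TATA box, or TATATAA were in 13 of the 14 Mup windows on either strand. TATAAA was in 13.6% and TATATAA in 3.24% of all 32851 windows, and TATATAA was looked for after the Mup3 window was seen. No Mup window held TTCNNNGAA, the core letters bound by STAT5, which 8.3% of all windows held. TGTTCT, a core bound by steroid receptors, was in 2 of the 14 Mup windows, with 1 match in Mup3 at -204 to -199, and in 19% of all windows. These are matches of letters and not binding sites.

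Obp1a, an odorant-binding lipocalin of nasal and other exocrine secretions, was clearly above the floor in ILn alone. Its probe set read 8.77 and 8.57 on the ILn arrays and 4.97 on MOLF B. It was at the floor on MOLF A and on every LP, NZB and FVBn array. The ILn arrays overlapped with no other array. The fold of ILn over LP and over NZB was at least 15.1, and ILn minus MOLF was 3.81 log2 units, a lower bound because MOLF A was at the floor. MOLF and the strains at the floor cannot be ordered. The Obp1a window, on the minus strand at chrX:78091325-78091624, holds TATAAA (capitals) at -30 to -25, and TGTTCT on its other strand at -144 to -139.
Obp1a: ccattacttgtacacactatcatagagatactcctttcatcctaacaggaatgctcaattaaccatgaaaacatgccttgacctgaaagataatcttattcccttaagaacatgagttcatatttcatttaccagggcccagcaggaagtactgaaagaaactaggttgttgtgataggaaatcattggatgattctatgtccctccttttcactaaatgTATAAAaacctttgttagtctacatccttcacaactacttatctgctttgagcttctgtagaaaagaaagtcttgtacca

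A further probe set is annotated to both Obp1b and Gm14743, so its signal cannot be given to either gene. It read 6.55 and 6.62 on ILn and was at the floor on all other arrays. The fold of ILn over MOLF, LP and NZB was at least 3.56. This set entered the tested probe sets only through the ILn arrays, and without either of them it fell short of the filter on dim values, so its difference is given with no test. Its values over the 9 strain arrays correlated with those of Obp1a at r = 0.998, a coefficient set by the 2 ILn arrays.

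Scgb1b27 was low in MOLF, intermediate in LP and NZB and high in ILn and FVBn. The probe set read 7.41 and 7.36 on MOLF, against 10.92 and 10.71 on ILn, 9.89 and 9.86 on LP, 9.93 and 9.59 on NZB and 11.18 on FVBn. MOLF overlapped with no other strain, LP and NZB overlapped with each other, and the single FVBn array was the highest. MOLF averaged 7.38 ± 0.04, ILn 10.82 ± 0.15, LP 9.87 ± 0.03 and NZB 9.76 ± 0.24 (SD, n = 2 each). MOLF minus ILn was -3.43, and MOLF minus the mean of ILn, LP and NZB was -2.77 (7.38 against 10.15). The suffix _r_at marks a set for which some probe selection rules were relaxed.

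The order of strains for Scgb1b27 was thus unlike that for the urinary proteins: MOLF was the highest strain for Mup5 and the lowest for Scgb1b27. Across the 9 strain arrays the correlation of Scgb1b27 was -0.306 with Mup5, -0.237 and -0.273 with the Mup3 sets and 0.453 with Obp1a. With so few arrays, which fall into strain clusters, these are descriptions only. ILn was the one strain name in which all 5 probe sets were above their mean over the 9 strain arrays.

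**Figure D2:**
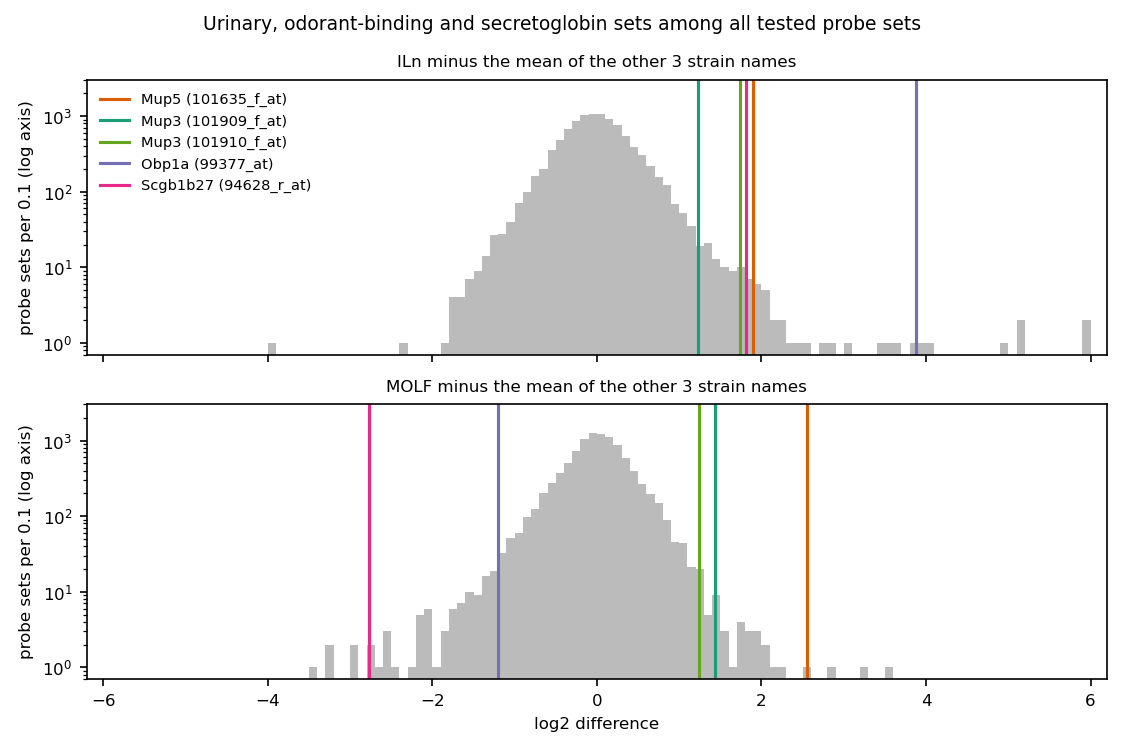
Log2 difference of ILn (upper panel) and of MOLF (lower panel) from the mean of the other 3 strain names with 2 arrays; grey bars count all 9899 tested probe sets per 0.1 on a log axis, with values beyond the axis in the end bars, and coloured lines mark the 5 member sets. All 5 lie right of 0 in ILn, while in MOLF the Mup sets lie right of 0 and Scgb1b27 (-2.77) left of it; the Obp1a line in MOLF (-1.2) is set by the high ILn arrays in the mean, since MOLF was at or near the floor like LP and NZB.

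Read against the whole data set, 28 of 9899 tested probe sets differed by more than 2 log2 units in ILn and 32 in MOLF. Obp1a (3.88, 8.67 against 4.79) was among the 28, and Mup5 (2.55) and Scgb1b27 were among the 32. Because these differences chose the genes, the place of the lines in the histogram of all probe sets describes the choice and supports nothing.

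Scgb1b2, a paralogue of Scgb1b27 that was not among the genes chosen, was higher in ILn. It read 10.30 and 9.89 on ILn, against 8.24 and 8.02 on MOLF, 8.39 and 8.12 on LP and 8.12 and 8.30 on NZB, with FVBn at 8.88. Both ILn arrays lay above all other arrays, and MOLF, LP and NZB overlapped. The difference from the mean of MOLF, LP and NZB was 1.90 (SE 0.173, 3.73-fold, adjusted p = 0.00444 in limma, higher in 2 of 2 ILn arrays). Without MOLF A and NZB B the difference was 1.97 and did not pass (adjusted p = 0.0661), nor did it without ILn A (1.70, adjusted p = 0.174) or ILn B (2.10, adjusted p = 0.0806).

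Scgb1b2 was not low in MOLF, where Scgb1b27 was: its difference of MOLF from ILn, LP and NZB was -0.73 (adjusted p = 0.289 in limma), a mean that includes the high ILn level. Its pattern was nearer to that of Obp1a (r = 0.944 over 9 arrays) than to that of Scgb1b27 (0.626), as a description. The promoter windows of the paralogues aligned at 77.2% identity over 237 columns and are set out to show that likeness, with TATAAA in capitals. It lies at -29 to -24 in Scgb1b2 (minus strand, chr7:31291767-31292066) and at +43 to +48 in Scgb1b27 (plus strand, chr7:34021231-34021530), after the start that RefSeq annotates.
Scgb1b27: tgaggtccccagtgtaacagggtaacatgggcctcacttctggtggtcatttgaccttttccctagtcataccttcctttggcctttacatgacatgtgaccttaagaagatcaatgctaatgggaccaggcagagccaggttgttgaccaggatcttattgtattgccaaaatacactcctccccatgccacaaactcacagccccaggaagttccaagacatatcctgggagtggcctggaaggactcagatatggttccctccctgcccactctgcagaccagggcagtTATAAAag
Scgb1b2: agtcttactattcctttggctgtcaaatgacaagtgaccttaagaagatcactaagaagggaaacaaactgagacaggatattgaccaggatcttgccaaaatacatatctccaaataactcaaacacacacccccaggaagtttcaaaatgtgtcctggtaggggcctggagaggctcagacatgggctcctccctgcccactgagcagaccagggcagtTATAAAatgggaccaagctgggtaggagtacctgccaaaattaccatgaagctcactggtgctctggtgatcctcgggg

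The other measured secretoglobin, Scgb1a1, an airway protein, was near the floor (4.75 to 6.26) and did not pass in ILn (0.35, adjusted p = 0.843 in limma). Among 24 secretoglobins listed, besides Scgb1b27, 2 were on the array with a single gene, and 1 of them, Scgb1b2, passed limma's moderated F test over ILn, MOLF, LP and NZB (adjusted p = 0.0166). That call was lost with the title date as a block (adjusted p = 0.0755 in limma), with the array letter as a block (0.0505), with no intensity trend (0.0558), without MOLF A and NZB B (0.134) and when dim probe sets were kept in (0.0681). It was also lost without ILn A (adjusted p = 0.31 in limma), ILn B (0.16), LP A (0.0919) or LP B (0.113). Of all tested probe sets 0.748% passed that test. For ILn against the other strains 0.364% of all probe sets were higher and 0.0404% lower, and for MOLF 0.131% were higher and 0.283% lower.

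Other lipocalins gave no call in limma. Of 31 listed, 13 were on the array and 7 passed the filter, and 0 of 7 passed in the F test, in ILn or in MOLF (1, 1 and 0 at an unadjusted p under 0.05). Of all 9899 tested probe sets 7.9% had an unadjusted p under 0.05 in the F test, 7.11% in ILn and 6.42% in MOLF. After adjustment 0.748% passed the F test. In ILn 0.364% were higher and 0.0404% lower, and in MOLF 0.131% higher and 0.283% lower. Beside such shares a count of 0 among 7 genes says little. The smallest p belonged to Apod, apolipoprotein D, a carrier of lipids (adjusted p = 0.561 in limma), which read 6.13 and 5.66 on ILn, 6.07 and 5.14 on MOLF, 6.86 and 6.03 on NZB and the floor on LP. Lcn2, a neutrophil and epithelial lipocalin that binds bacterial iron carriers, read 12.31 to 12.93 on the 9 strain arrays and did not pass (adjusted p = 0.827 in limma). The median difference of the 7 lipocalins was -0.10 in ILn and 0.14 in MOLF, against -0.02 and 0.01 over all tested probe sets.

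**Figure D3:**
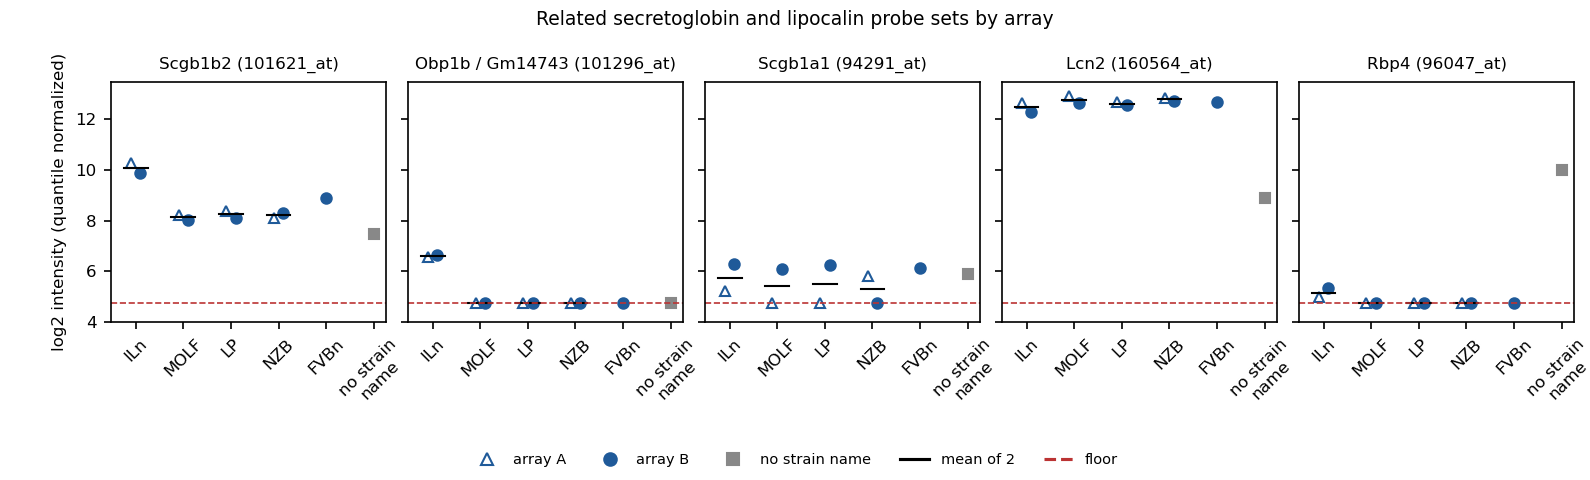
Quantile normalized log2 intensity of 5 related probe sets on each array, with symbols, bars and the dashed floor of 4.75 as in the plot of the urinary and secretoglobin sets. Scgb1b2 and the set annotated to both Obp1b and Gm14743 are highest on the 2 ILn arrays, while Scgb1a1 is near the floor, Lcn2 lies between 12.31 and 12.93 on strain arrays and Rbp4 reaches 9.98 only on the array with no strain name.

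Genes of the hormone pathways that act on Mup genes in liver did not pass either. The list of 20 held, among others, the growth hormone and prolactin receptors, their kinase and STAT5 factors, steroid and thyroid receptors and liver factors. Of the 20, 15 passed the filter. In limma 0 of 15 passed over strains, in ILn or in MOLF. At an unadjusted p under 0.05 there were 3, 3 and 2, beside shares of 7.9%, 7.11% and 6.42% over all tested probe sets. After adjustment 0.748% of all tested probe sets passed over strains. In ILn 0.364% were higher and 0.0404% lower, and in MOLF 0.131% higher and 0.283% lower. Beside such shares a count of 0 among 15 genes says little. Thrsp, a thyroid hormone responsive regulator of fat synthesis, had the smallest p (adjusted p = 0.248 in limma) and read 9.57 and 9.63 on ILn, 10.34 and 10.31 on MOLF, 10.44 and 10.30 on LP and 9.84 and 10.19 on NZB. Stat5b, the factor through which growth hormone acts on liver Mup genes, read 6.60 and 6.45 on ILn, 5.94 and 6.27 on MOLF, 5.95 and 5.94 on LP, 5.32 on NZB A and the floor on NZB B, and did not pass (adjusted p = 0.494 over strains in limma). The list's median difference was 0.000378 in ILn and 0.12 in MOLF.

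Markers of salivary and lacrimal gland, taken as a list, were high on ILn and FVBn. Of 30 listed, 13 passed the filter; in limma 8 of 13 rose in ILn and 0 fell, while in MOLF 1 rose, Bpifa2, a salivary secretory protein, and 0 fell. Over all tested probe sets 0.364% were higher in ILn and 0.131% in MOLF. The list was chosen with earlier results of these same arrays known, so its counts are a description and no independent support. Counts for this list under the alternatives were added after the data were seen. With the title date as a block 5 rose in ILn and 0 in MOLF. Fewer also rose in ILn without MOLF A and NZB B or without either ILn array, fits that leave 1 array in a strain. The summed intensity of the 13 was 27200 and 25770 on ILn, 4810 and 5746 on MOLF, 2386 and 1527 on LP, 974 and 964 on NZB and 37460 on FVBn. Amy1, salivary amylase, and Dnase1, a secreted nuclease, were at the floor on all LP and NZB arrays, but other listed genes were not. Car6 read 10.67 and 9.89 on LP, against 10.14 and 10.38 on ILn. Smr2 read 5.49 and 6.05 on LP and 6.15 on both NZB arrays, against 5.10 and 4.94 on ILn. The difference of ILn from MOLF, LP and NZB was above 0 for 12 of the 13. The FVBn sum came from 1 array and included Prol1 at 13.08, against 7.69 and 7.57 on ILn. The sum was highest on FVBn, as was Scgb1b27, but Obp1a and the second Mup3 set were at the floor there. Mup5 was highest on MOLF, where the sum was below that of ILn and FVBn. The part of such glands in the Mup, Obp1a and secretoglobin values was not tested.

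Markers of hepatocytes, a main source of urinary proteins in male mice, gave no call in limma. Of 20 listed, 17 were on the array and 8 passed the filter, and 0 of 8 passed in ILn or MOLF (1 and 0 at an unadjusted p under 0.05). Over all tested probe sets 7.11% in ILn and 6.42% in MOLF had an unadjusted p under 0.05. After adjustment 0.364% were higher and 0.0404% lower in ILn, and 0.131% higher and 0.283% lower in MOLF. Beside such shares a count of 0 among 8 genes says little. Their summed intensity was 401 and 525 on ILn, 601 and 547 on MOLF, 590 and 536 on LP, 445 and 551 on NZB and 438 on FVBn. Albumin (Alb) read 5.26 and 5.43 on ILn, 6.30 and 5.79 on MOLF and 5.67 and 5.13 on LP, and was at the floor on NZB A and highest of all on NZB B (6.70). Keratinocyte and sebaceous markers gave 0 calls among 5 in ILn and MOLF (0 and 0 unadjusted), too few genes to set apart from the same shares.

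**Figure D4:**
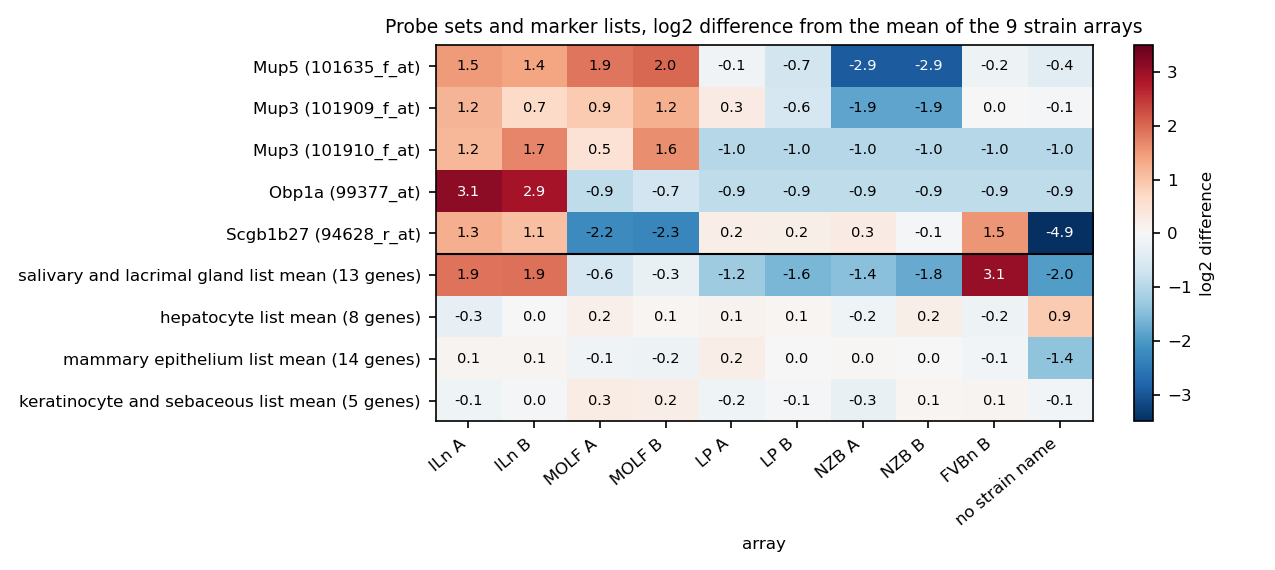
Log2 difference of each of the 5 probe sets (upper rows) and of the mean of each marker list (lower rows) from its mean over the 9 strain arrays, with arrays in columns; red is above and blue below, and the colour scale ends at 3.5 either way. The salivary and lacrimal row is high on ILn (1.91 and 1.92) and FVBn (3.06), while the hepatocyte row stays within 0.29 of 0 on strain arrays.

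Leaving out the 6 genes chosen, the tested genes with values most like Mup5 over the 9 strain arrays were Atp2a3 (r = 0.949), a calcium pump, Apoc1 (0.929), an apolipoprotein, and Bcat2 (0.921), which transaminates branched-chain amino acids. With the same genes left out, the first Mup3 set was most like Sh3d19 (0.919), Rfk (0.918), the riboflavin kinase, and Apoc1 (0.918). Apoc1 thus came up for both, at 8.49 and 8.61 on MOLF, 7.99 and 7.998 on ILn, 7.95 and 7.51 on LP and 7.16 and 6.52 on NZB. Scgb1b27 was most like Cap1 (0.949), an actin regulator, Ttc27 (0.939) and Commd4 (0.937). Commd4 read 6.56 and 6.97 on MOLF and 7.51 to 8.39 on the other strain arrays.

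For Obp1a the most alike were Lyve1 (r = 0.999), a hyaluronan receptor of lymphatic vessels, Il1a (0.987), the cytokine interleukin-1 alpha, and Ccn3 (0.986), a matrix-associated protein. All 3 were close to the floor on ILn (4.88 to 5.40) and at it on the other strain arrays, except for Il1a at 4.88 on LP B. A coefficient near 1 here reflects arrays at the floor and not a shared range of levels. All of these genes were picked for their coefficient over 9 arrays, which carries no test.

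On the array with no strain name Mup5 read 7.28 and the first Mup3 set 6.54, inside the range of LP, while the second Mup3 set, Obp1a and Scgb1b27 were at the floor. Scgb1b2 read 7.47 there, below every strain array.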

How the data were processed

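Total RNA of 10 tumour samples was hybridised to mg_u74av2 arrays, per the labels. The deposited values are linear intensity values, 1 per probe set and array; the sources used here do not give how the authors summarised probes. Trimming 2% at each end left a mean of 150.1 on 9 arrays and 500.2 on ILn A. The 9 strain arrays were quantile normalized on the log2 scale (limma 3.58.1, R 4.3.3), and the unnamed array was mapped on to that distribution. Values under the 30th percentile (intensity 27.0) were raised to it. Of 12488 probe sets, 66 controls were removed, and 9899 lay above the floor on at least 2 of 9 arrays and were tested.

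In the platform annotation 10855 probe sets had a single symbol, 396 had several and 1237 had none. Entrez identifiers brought symbols up to date for 10839. Related and marker genes were tested in limma (lmFit, eBayes with an intensity trend) with a mean for each of 5 strain names and 4 residual degrees of freedom, and p-values were adjusted over all 9899 probe sets by the Benjamini-Hochberg method at 0.05. A gene was represented by its brightest tested probe set. The fit was checked on simulated data. The genes, lists and tests were chosen with earlier results of these data known. From each related list up to 4 genes past the F test, or else the one with the smallest p, were named. The 3 genes most like each member by Pearson correlation were named too. Lcn2, Scgb1a1, Stat5b, Rbp4, Alb, Amy1, Dnase1, Bpifa2, Car6, Smr2 and Prol1 were named after their values were seen. So were Krt19, Ltf, Nr3c1, Orm1, Orm2, Orm3 and C8g. Alternatives were median centring, another floor, filters on dim probe sets, no intensity trend, title date or array letter as a block, the latest title date alone and arrays left out. Letters did not pair arrays: the A minus B differences of strains correlated at -0.707 to 0.131. Precision is limited by how few arrays there are.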

Additional observations from a re-analysis of the deposited data

How the results depend on the processing

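Of 170 member differences recomputed under the alternatives, 153 moved by less than the pooled SD within strains, 17 moved by more and 0 turned sign. Many could not move, so these counts are no measure of stability. The filters on dim probe sets and omission of FVBn B leave the member means as they were. The array-letter block returned the same values, and omission of 1 array from a strain at the floor leaves its mean unchanged. With the floor at the 20th percentile, Mup5 differed by 2.13 in ILn and 2.79 in MOLF, and Obp1a by 4.54 in ILn and -0.58 in MOLF. On the latest title date alone the difference was 1.84 for the first Mup3 set and -1.06 for Obp1a in MOLF, and 3.75 for Obp1a and 1.66 for Scgb1b27 in ILn. Without MOLF A and NZB B, Obp1a differed by -1.09 in MOLF, and with one array left out at a time by -1.31 to -1.09. The cause of these shifts was not tested, except that a lower floor by construction widens the difference of a high strain from strains at the floor. The Obp1a difference in MOLF instead narrowed with the lower floor, from -1.2 to -0.58.

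Scgb1b2 was the 1 related gene past the F test and in ILn. The F count over the 24 related genes was 0 with the title date as a block, 0 with the array letter as a replicate block, 0 without MOLF A and NZB B, 0 with no intensity trend and 0 to 1 with single arrays left out (0 when either ILn array or either LP array was absent); with no filter on dim probe sets it was 1, which was Nr3c1. The ILn count was 2 with no filter (Scgb1b2 and Nr3c1), 0 without MOLF A and NZB B and 0 to 1 with single arrays left out. The MOLF count was 1 with no filter (Nr3c1). Nr3c1 lay at the floor on all MOLF, LP and NZB arrays. Over all probe sets the F test called 74 in the analysis described, 36 with median centring, 18 with the title date as a block, 31 with the replicate block, 48 with no intensity trend 19 without MOLF A and NZB B, and 14 to 81 with single arrays left out. For ILn 40 were called, 13 with the title date as a block, 25 without MOLF A and NZB B and 5 to 43 with single arrays left out. For MOLF 41 were called, 23 with median centring, 6 with the title date as a block, 26 with the replicate block, 0 without MOLF A and NZB B and 4 to 43 with single arrays left out. Differences between probe sets at the floor were not detectable.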

Other observations

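The array whose title names no strain differed from the strain arrays at some lipocalins. Rbp4, the retinol carrier, read 9.98 there and the floor to 5.32 on strain arrays. Orm1, an acute phase lipocalin, read 8.71 there on the probe set annotated to it alone, which was at the floor on all 9 strain arrays. A set annotated to both Orm1 and Orm2 read 9.64 there and 6.11 on MOLF B, and was at the floor on the other strain arrays. The brighter Lcn2 set read 8.87 there, against 12.31 to 12.93 on strain arrays, but the dimmer Lcn2 set (6.79) lay inside the strain range of 6.65 to 8.56. Apod (6.05), Orm3 (6.59) and C8g (6.51) also lay inside their strain ranges. The mammary epithelium list mean differed by -1.4 log2 units from its mean over the strain arrays. As 1 array with no group, it carries no test.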
